A study of Homo sapiens with 5 samples.

Results

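H2A-K130ac peaks were examined at 6 genes of the androgen receptor program, FOXA1, HOXB13, KLK2, KLK3, TMPRSS2 and FKBP5, in C4-2B, a castration-resistant prostate cancer line derived from LNCaP. The 6 genes were taken by name from 18343 genes that the authors' annotation of the 2 C4-2B peak lists provides with a start and an end. A peak was counted for a gene if it was annotated to it, or if it lay within 100 kb of the gene's limits. By this rule 40 of 67807 peaks of the abiraterone list and 30 of 91399 peaks of the Romidepsin list belonged to these genes. The receptor gene itself was not analysed here.

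The study asked where acetylation of lysine 130 of histone H2A is placed when androgen is withdrawn or when histone deacetylases are blocked. Both C4-2B libraries were made with the H2A-K130ac antibody, from cells given abiraterone, which blocks androgen synthesis at CYP17A1, or Romidepsin, which blocks histone deacetylases. The treatments are read from sample titles that give them as abi and romi. Each treatment has 1 sample and 1 peak list. The study's reporting form says that ChIP-seq samples were run in duplicate, but whether a list pools duplicates is not given in the sources used here, and no values per replicate were given. No vehicle-treated C4-2B library was given, and 3 VCaP samples of the series have no file here. The sample labels carry over a protocol with 0.5 µM Romidepsin on VCaP cells, so the doses given to C4-2B are uncertain, and they list C4-2B as breast cancer, although the study used it as a prostate line. Differences between the lists are therefore described without a test, and treatment and library cannot be told apart. Coordinates are those of hg19, since the last peak on chromosome 1 ends at 249191832, past the end of that chromosome in hg38, which the labels name.

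The androgen receptor is a hormone-activated transcription factor that binds response elements in promoters and enhancers of its target genes. In prostate cells it works together with FOXA1, a forkhead pioneer factor that opens chromatin, and HOXB13, a homeodomain factor of the prostate lineage. KLK2 and KLK3 encode secreted kallikrein proteases, KLK3 being prostate-specific antigen, while TMPRSS2 encodes a serine protease of the cell membrane and FKBP5 a co-chaperone of steroid receptors. All 4 are well-known targets of the receptor.

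Under abiraterone a peak lay within 3 kb of a start site of 4 of the 6 genes (HOXB13, TMPRSS2, KLK2 and KLK3), and under Romidepsin of 0 of 6. None of these 4 peaks passed the q cutoff of 0.01 named in the study, and the shares below also count peaks of any q. Of all 18343 genes, 22.3% had such a peak under abiraterone and 34.1% under Romidepsin. Gene limits held a peak for 5 of the 6 genes under abiraterone (47.2% of all genes) and for 2 of 6, TMPRSS2 and FKBP5, under Romidepsin (59.1%). These counts do not have all genes as a fair background, since KLK2, KLK3 and FKBP5 have limits only because an abiraterone peak, and no Romidepsin peak, was annotated to them. Among the 3 genes with limits from both lists, FOXA1, HOXB13 and TMPRSS2, a start site had a peak within 3 kb for 2 under abiraterone and 0 under Romidepsin (28% and 35.5% of the 11700 genes of that kind), and limits held one for 2 and 1 (62.3% and 67%). Among the other 3, the start-site counts were 2 and 0 (38.4% and 2.81% of 1889 genes), and those within limits 3 and 1 (51.6% and 14.5%). Windows of 100 kb held a peak for all 6 genes in both lists, which was also true of 97.4% and 99.4% of all genes, respectively. The values behind these counts follow, first for the cofactors and then for the target genes.

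**Figure D1:**
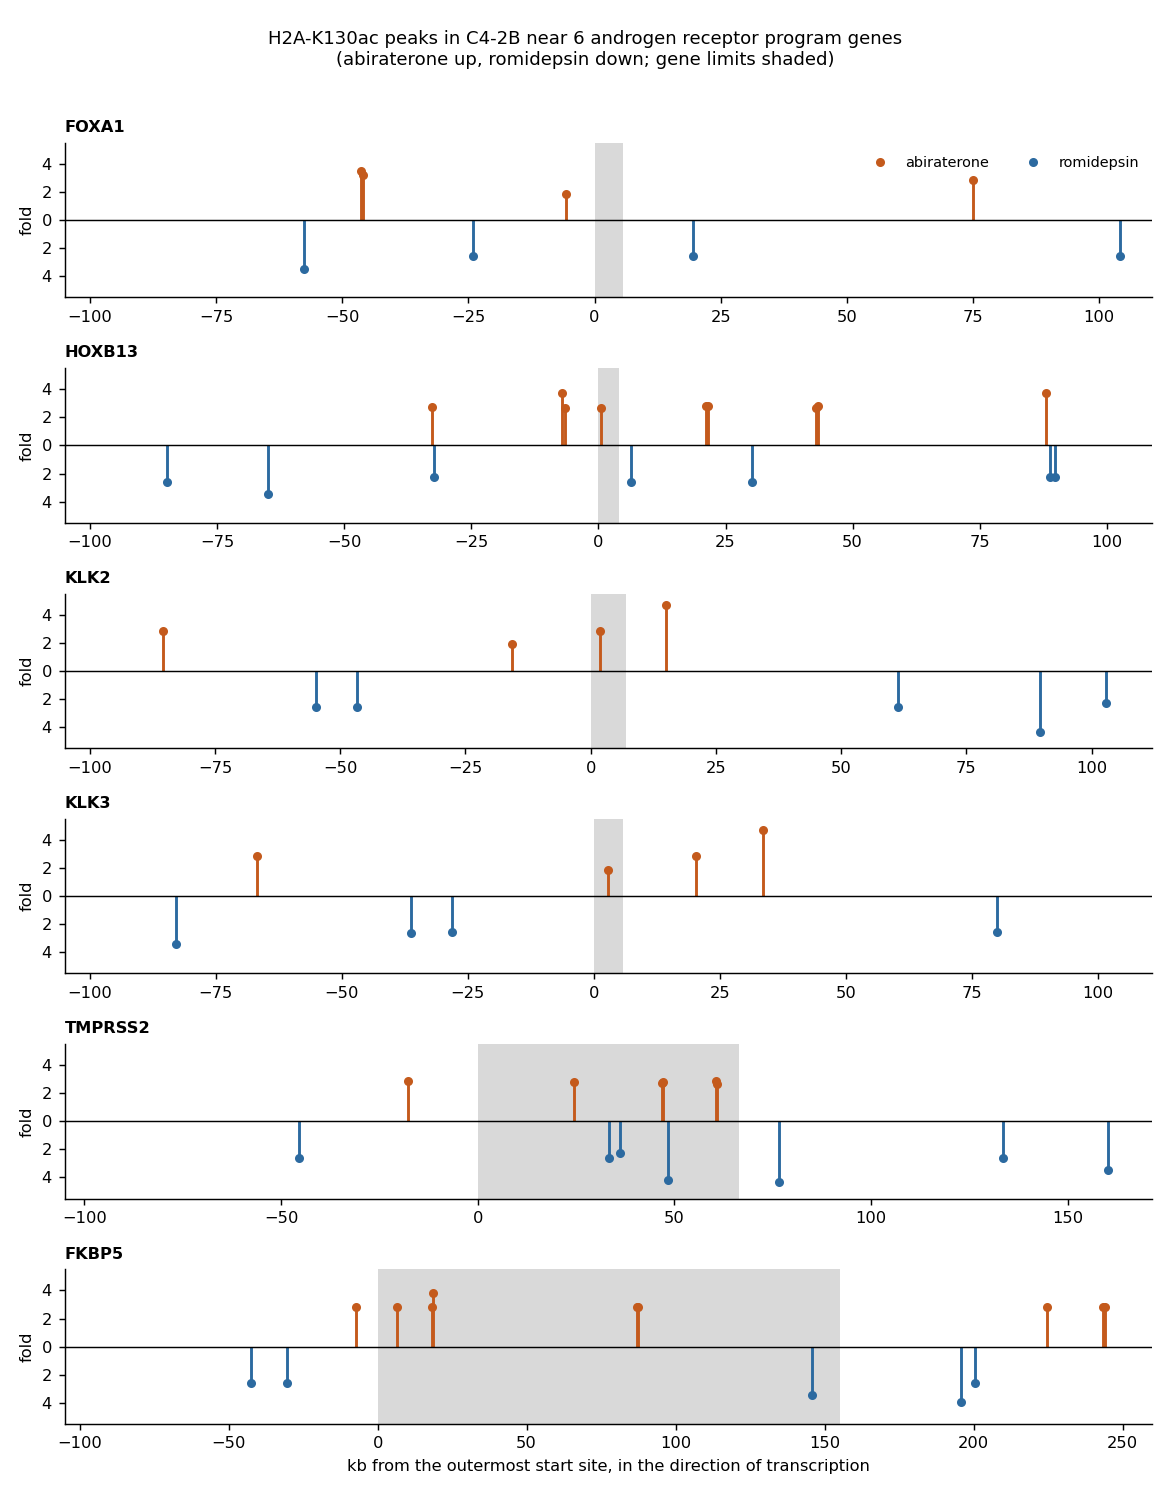
Peaks within 100 kb of each gene, drawn at the summit, in kb from the gene's outermost start site along the direction of transcription, with height as the authors' fold over control (abiraterone above the line, Romidepsin below, gene limits shaded). Abiraterone peaks stand inside the shaded limits of every gene other than FOXA1, while Romidepsin peaks stand inside those of TMPRSS2 and FKBP5.

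FOXA1 lies on chr14:38058757-38064325, on the minus strand, and held no peak within its limits under either treatment. The nearest abiraterone peak, chr14:38069658-38070392, lay 5333 bp upstream of the start site and was 735 bp wide. Its fold, meaning the authors' enrichment over the control, was 1.88, and its −log10 q, the authors' value for how unlikely the enrichment is after correction, was 0.72. This was among the weakest peaks of its list, of which 97.9% had a higher fold. Further upstream, at 45806 and 46137 bp, lay a couple of short abiraterone peaks of 128 and 125 bp with folds of 3.24 and 3.51. The nearest Romidepsin peak was on the other side of the gene, 18431 bp from a start site at chr14:38044657-38045036, with a fold of 2.55. In the window each list held 4 peaks, and no abiraterone peak there came closer than 11297 bp to a Romidepsin peak.

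Beyond the window, 8 abiraterone peaks and 1 Romidepsin peak were assigned to FOXA1 by the authors' annotation, at 115498 to 272172 bp from its start sites. Those on the upstream side, and 4 of the upstream peaks within the window, were labelled as lying in introns or an exon of another transcript. Its gene identifier in the annotation could not be paired with a gene name here. The highest fold of any abiraterone peak assigned to the 6 genes, 5.59 with a −log10 q of 4.94, was among them, at chr14:38213172-38213583 and 148847 bp upstream of FOXA1. All 3 abiraterone peaks and 2 of the 3 Romidepsin peaks on the downstream side were labelled as introns of the neighbouring gene MIPOL1. FOXA1 thus had 12 abiraterone and 5 Romidepsin peaks to its name, although none lay inside it.

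HOXB13, on chr17:46802127-46806111 and the minus strand, carried the peak nearest to a start site of the 6 genes. This abiraterone peak, chr17:46805535-46805884, began 227 bp inside the gene and had a −log10 q of 1.37 at a fold of 2.69. Upstream lay abiraterone peaks at 6404 bp and 6995 bp, the second reaching a fold of 3.75 (−log10 q 2.66). Romidepsin gave no peak within the gene. Its nearest one, chr17:46799540-46799883, was downstream of HOXB13 by 2244 bp and was annotated to the promoter of PRAC1, a small prostate-expressed gene, with a fold of 2.61.

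Upstream of HOXB13 the lists met at 1 site. The abiraterone peak chr17:46838531-46838925, 32420 bp from the start site, shared 78 bp with the Romidepsin peak chr17:46838087-46838608, 31976 bp from it. Folds were 2.76 for the former and 2.26 for the latter, at a −log10 q of 1.57 and 0.51. A second near-contact lay on the downstream side, where the abiraterone peak chr17:46717765-46718092, with a fold of 3.77, and the Romidepsin peak chr17:46717167-46717539, with a fold of 2.26, were 226 bp apart next to MIR196A1. The HOXB13 window held 9 abiraterone and 7 Romidepsin peaks.

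KLK3 (chr19:51358171-51364020) and KLK2 (chr19:51376689-51383823) are neighbours on the plus strand and share most of their windows. Each gene held 1 abiraterone peak. That of KLK3, chr19:51360699-51361213, lay 2528 bp into the gene (fold 1.88, −log10 q 0.72), and 98.1% of the list had a higher fold. That of KLK2, chr19:51378397-51378772, lay 1708 bp into the gene (fold 2.83, −log10 q 1.57). Both were labelled promoter in the authors' annotation. Downstream of KLK2, at KLKP1, a kallikrein pseudogene, an abiraterone peak 196 bp wide (chr19:51391718-51391913) reached a fold of 4.70 at a −log10 q of 3.80, the highest of both values within 100 kb of any of the 6 genes.

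Under Romidepsin neither KLK3 nor KLK2 held a peak. The nearest lay at chr19:51329849-51330208, 27963 bp from the KLK3 start, and the next on the other side at chr19:51437738-51438117, with folds of 2.58 each and none between them. These peaks were nearest to KLK1 and KLK5. The window of KLK2 also held the Romidepsin peak chr19:51466167-51466433 in an intron of KLK6, with a fold of 4.35. In the abiraterone list 4 peaks served both windows, while in the Romidepsin list 4 fell in that of KLK3 and 5 in that of KLK2.

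The sequences before the 2 kallikrein start sites are shown because this is where the receptor's best-known proximal element lies and because the abiraterone peaks lie downstream of it. They are taken from RefSeq (GRCh38.p14, plus strand), at chr19:50854665-50854914 for KLK3 and chr19:50873189-50873438 for KLK2, each 250 bases ending just before the start site. Capitals mark the androgen response half-site AGAACA of KLK3 and the letters aligned with it in KLK2.
KLK3: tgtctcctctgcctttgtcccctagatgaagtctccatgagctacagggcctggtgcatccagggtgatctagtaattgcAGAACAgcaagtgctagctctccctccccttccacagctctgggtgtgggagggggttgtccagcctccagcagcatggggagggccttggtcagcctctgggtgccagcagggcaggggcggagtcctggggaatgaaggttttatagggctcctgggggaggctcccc
KLK2: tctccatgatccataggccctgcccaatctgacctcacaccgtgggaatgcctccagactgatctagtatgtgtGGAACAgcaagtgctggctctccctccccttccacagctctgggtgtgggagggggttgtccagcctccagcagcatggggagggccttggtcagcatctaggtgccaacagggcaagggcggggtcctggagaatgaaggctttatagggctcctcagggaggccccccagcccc

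In a global alignment these stretches were identical in 205 of 259 columns (79.2%), with 18 columns of gaps. The half-site began 170 bases before the KLK3 start and its KLK2 counterpart 176 bases before the KLK2 start. They differed by A1G, counted from 1 at the first base of the half-site, with the KLK3 base first. Among 35116 promoters of the RefSeq table, 12.4% held AGAACA on either strand in this stretch. The forkhead motif TGTTTAC (2.98% of promoters) and the HOXB13 motif CCAATAAA (0.863%) were found in neither. The FOXA1 promoter and the 2 FKBP5 promoters of the table held none of the 3 motifs. A full response element was sought only in its exact form, meaning AGAACA facing its reverse complement across 3 bases. This form was found before the start site in 1 promoter of the whole table, which was none of these. Full elements with an inexact second half-site were not searched for, so KLK3 and KLK2 may still hold one. A match is a description of the letters only. Neither kallikrein peak covers the printed stretch. How reads from such similar sequence were placed by the aligner was not tested.

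TMPRSS2, on chr21:42836478-42903043 and the minus strand, was the gene with most peaks inside its limits under Romidepsin. Abiraterone placed 5 peaks there. The one nearest to a start site, chr21:42878364-42878981, began 1011 bp into a transcript that starts inside the gene's outermost limits (fold 2.82, −log10 q 1.57). The other 4 came as short peaks in twos, at intron 11 and exon 11 (chr21:42842106-42842230 and chr21:42842508-42842634) and in intron 5 (chr21:42855745-42855869 and chr21:42856051-42856178). They were 125 to 128 bp wide, with folds of 2.69 to 2.85.

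Romidepsin placed 3 peaks within TMPRSS2, in introns 2, 2 and 5. The peak in intron 5, chr21:42854247-42854934, was 688 bp wide, the widest near any of the 6 genes in this list (fold 4.16, −log10 q 1.96). It lay 811 bp from the abiraterone peaks of the same intron without touching them. The peaks in intron 2 lay 10038 and 12991 bp from the start site, with folds of 2.61 and 2.26. Upstream of the gene, abiraterone had 1 peak at 17663 bp (fold 2.85) and Romidepsin 1 at 45167 bp (fold 2.58).

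FKBP5, on chr6:35541362-35696397 and the minus strand, is the longest of the 6 genes at 155.0 kb and held 5 abiraterone peaks. Intron 1 carried a peak at 6265 bp from the start site (chr6:35689874-35690132, fold 2.85). In intron 2, at chr6:35677519-35677924 and 18473 bp from the start site, lay a peak whose fold was 3.80 at a −log10 q of 2.66, where 8.35% of the list had a higher fold, accompanied by a short peak at chr6:35678113-35678240 with a fold of 2.83. A further couple of 125 and 128 bp lay deeper in the gene, with folds of 2.83 and 2.82, and was annotated to MIR5690.

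Romidepsin gave FKBP5 1 peak, chr6:35550523-35550854, near the far end of the gene (fold 3.44, −log10 q 1.29). It was labelled as a 3′ untranslated region, and its nearest start site was that of TULP1, so that 0 Romidepsin peaks were annotated to FKBP5. The nearest Romidepsin peak to the FKBP5 start site was 30289 bp upstream, at chr6:35726686-35727127, with a fold of 2.61. No abiraterone peak of the FKBP5 window came within 14705 bp of a Romidepsin peak.

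Set side by side, the abiraterone peak was nearer to a start site than the Romidepsin peak at 6 of 6 genes, against 38.1% of all genes. The distances under abiraterone were 0.227 kb for HOXB13, 1.01 kb for TMPRSS2, 1.71 kb for KLK2, 2.53 kb for KLK3, 5.33 kb for FOXA1 and 6.26 kb for FKBP5. Under Romidepsin they were 6.23 kb for HOXB13, 10.0 kb for TMPRSS2, 18.4 kb for FOXA1, 28.0 kb for KLK3, 30.3 kb for FKBP5 and 46.5 kb for KLK2. The medians were 2.12 and 23.2 kb, whereas over all genes they were 11.6 and 5.83 kb, respectively. A peak within 3 kb under abiraterone with none under Romidepsin was found at 4 of 6 genes and at 14% of all genes. Within 10 kb, the counts were 6 of 6 under abiraterone (46.4% of all genes) and 1 of 6, HOXB13, under Romidepsin (64.5%). All of these nearest peaks, in either list, fell short of the q cutoff of 0.01 named in the study. Their −log10 q was 0.72 to 1.57 under abiraterone and 0.72 under Romidepsin. The shares of all genes count peaks of any q as well, and the distances were not compared at that cutoff.

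How a gene came to have limits bears on this comparison. KLK2, KLK3 and FKBP5 have limits from the abiraterone annotation alone, because no Romidepsin peak was annotated to them, and among the 1889 genes of that kind 92.2% had the nearer peak under abiraterone. FOXA1, HOXB13 and TMPRSS2 have limits from both lists, and among the 11700 such genes the share was 43.2%. The 3 genes of the second kind showed the same order, with no replicate to give its error.

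**Figure D2:**
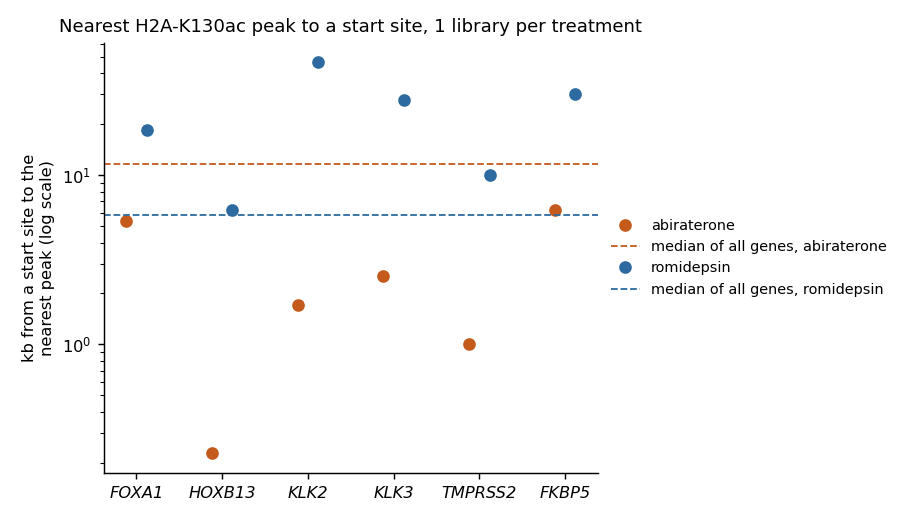
Distance in kb, on a log scale, from a start site of each gene to the nearest peak of each list, with dashed lines at the median over all genes with limits. At each of the 6 genes the abiraterone point lies below the Romidepsin point, from 0.227 against 6.23 kb at HOXB13 to 1.71 against 46.5 kb at KLK2. None of the peaks behind the points passed a q of 0.01.

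By the authors' q-values few of these peaks were strong. A −log10 q of at least 2, which is the cutoff of 0.01 named in the study, was reached by 4 of the 32 abiraterone peaks within 100 kb, or 12.5% with 3.51 to 29.0% as the exact 95% binomial interval, which covers counting error only, and by 24.9% of the whole list. These 4 were the HOXB13 peaks at 6995 bp upstream and next to MIR196A1, the FKBP5 peak in intron 2 and the peak at KLKP1. Under Romidepsin 0 of 29 peaks reached it, where the interval reaches up to 11.9%, and 2.73% of the whole list did. Within the gene limits alone the FKBP5 peak was the 1 that passed. Median folds near the genes were 2.83 and 2.61, the same as in the respective whole lists. Many peaks share exactly these folds, 8344 in the abiraterone list and 24819 in the Romidepsin list, so equal medians say little. Folds were not set against each other between lists because the libraries were not normalized to each other.

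**Figure D3:**
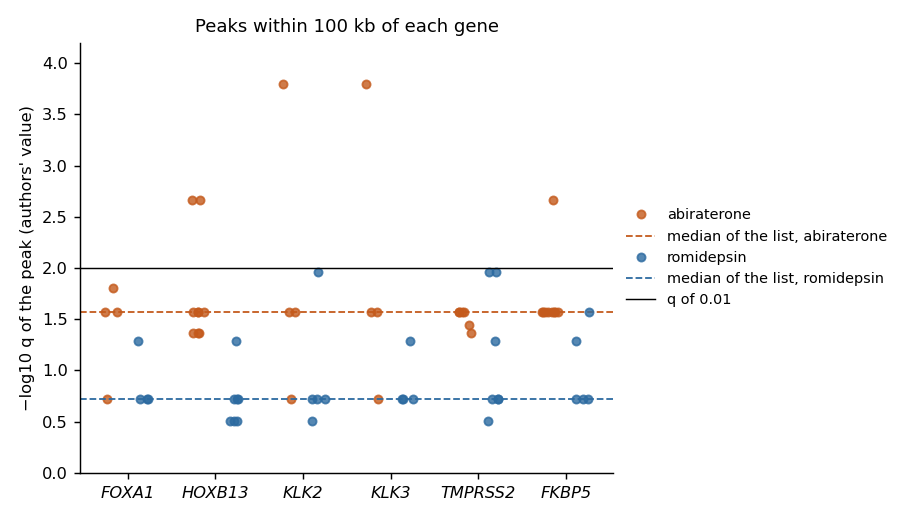
The authors' −log10 q for each peak within 100 kb of the 6 genes, with dashed lines at the median of each whole list and a solid line at a q of 0.01 (points are spread sideways for visibility; 4 abiraterone peaks serve both kallikreins). Points above the solid line are abiraterone peaks at HOXB13, FKBP5 and the kallikreins, up to 3.80.

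In all, the windows of the 6 genes, joined where they overlap into 5 regions of 1256.8 kb, held 32 abiraterone peaks, or 0.0472% of that list (exact 95% binomial interval 0.0323 to 0.0666%), and 29 Romidepsin peaks, or 0.0317% (0.0213 to 0.0456%). This amounted to 2.55 and 2.31 peaks per 100 kb, where the median over all genes was 2.34 and 3.69. With peaks up to 400 bp apart joined, the abiraterone value fell below its median, at 1.83 against 1.97, and the Romidepsin values were 2.31 and 3.43. HOXB13 had the densest window in both lists, at 4.41 per 100 kb under abiraterone, above 90.5% of all genes, and 3.43 under Romidepsin, above 44.9%. FKBP5 stood at 2.53 under abiraterone, above 57.6% of genes, but at 1.41 under Romidepsin, above 7.75%. The other 4 genes had 1.93 to 2.25 peaks per 100 kb under abiraterone, and under Romidepsin 1.94 to 2.63. Values per gene are for unjoined peaks, and ranks with peaks joined were not computed. Several abiraterone peaks of HOXB13 and of FKBP5 stood less than 400 bp apart, so joining would lower both values. KLK2, KLK3 and FKBP5 have limits only through an abiraterone peak, so all genes are not a fair background for these densities. Medians over genes of that kind were not computed.

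**Figure D4:**
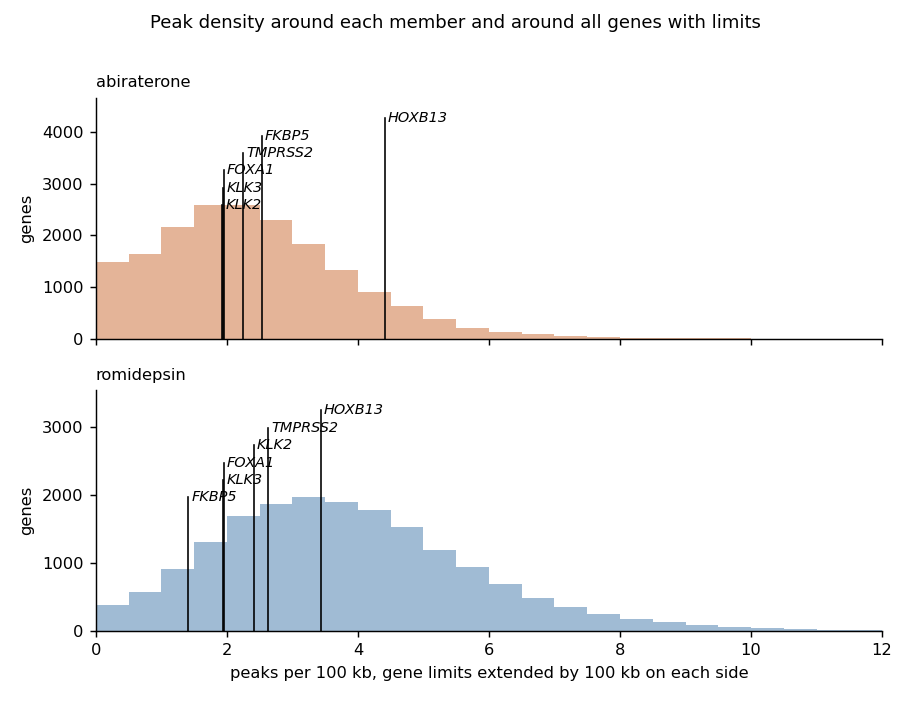
Peaks per 100 kb of gene plus flanks for all genes with limits (bars, number of genes in steps of 0.5) and for the 6 genes (black lines), by list; genes beyond 12 per 100 kb fall outside the axis. Under Romidepsin the 6 genes lie between 1.41 and 3.43, below the median of 3.69, and under abiraterone they lie between 1.93 and 4.41, around the median of 2.34. Peaks were not joined. All genes are not a fair background for KLK2, KLK3 and FKBP5, which have limits only through an abiraterone peak.

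Overlap between the lists was confined to the site upstream of HOXB13 described above, which is 1 of 32 abiraterone peaks (3.12%, interval 0.0791 to 16.2%) and 1 of 29 Romidepsin peaks (3.45%, 0.0873 to 17.8%). Over the whole lists 4.04% and 2.9% of peaks overlapped, values that both intervals contain. The median distance to the nearest peak of the other list was 14.0 kb for the abiraterone peaks near the genes and 23.6 kb for the Romidepsin peaks, where the medians of the whole lists were 10.4 and 15.0 kb.

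By the authors' classes, 7 of the 32 abiraterone peaks (21.9%) and 8 of the 29 Romidepsin peaks (27.6%) were promoter peaks, against 7.58% and 8.85% of the lists. The windows were laid around genes, whereas the lists cover the genome. Of the abiraterone promoter peaks 4 belonged to HOXB13, KLK2, KLK3 and TMPRSS2, and 3 to ACP4, KLKP1 and LOC285847. All 8 Romidepsin promoter peaks belonged to neighbouring genes, which were PRAC1, TTLL6, LINC01869, KLK1, GPR32 and MX2. Introns made up 13 and 8 peaks, distal intergenic sequence 10 and 12.

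The short abiraterone peaks that stood in twos recurred at 4 of the 6 genes. Taking peaks of at most 130 bp whose neighbour is equally short and at most 400 bp away, 12 of the 32 abiraterone peaks (37.5%) formed 6 such pairs, 2 each at TMPRSS2 and FKBP5 and 1 each at FOXA1 and HOXB13, against 19.9% of the whole list. The gaps were 181 to 277 bp, and 186 bp at the median of all 6754 pairs. Among the Romidepsin peaks near the genes 0 of 29 were of this kind, against 5.15% of that list. With peaks up to 400 bp apart joined, an alternative chosen after these pairs were seen, the abiraterone peaks near the genes numbered 23 and those within limits 9.

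**Figure D5:**
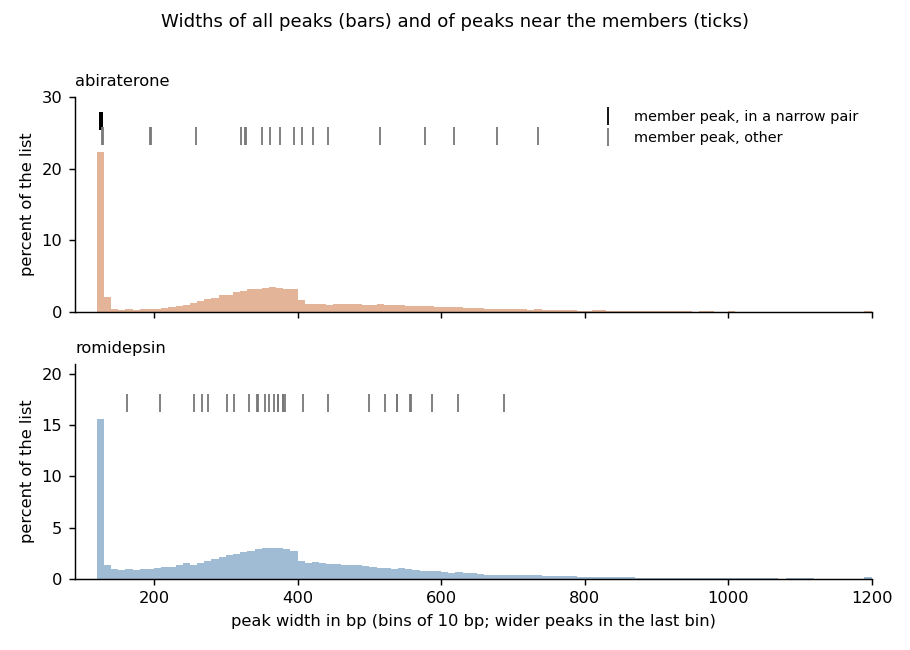
Widths in bp of all peaks (bars, percent of each list in steps of 10 bp, wider peaks in the last step) and of peaks within 100 kb of the 6 genes (ticks; black for narrow pairs, grey for others). Both lists have a spike at the narrow end, where the 12 paired abiraterone ticks stand and no Romidepsin tick does.

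Further genes of the program were taken from a list of androgen-induced prostate genes and a list of receptor cofactors and chaperones. Of 22 listed androgen-induced genes 19 had limits, and of these 15 held an abiraterone peak and 14 a Romidepsin peak within limits. Their median length was 63.1 kb, against 22.8 kb over all genes, and of all genes 47.2% and 59.1% held such a peak. The part of length in these counts was not tested. A peak within 3 kb of a start site was present for 6 of 19 under either treatment, against 22.3% and 34.1% of all genes. At a −log10 q of at least 2, 5 of 19 held a peak under abiraterone and 0 under Romidepsin, against 22.7% and 5.88% of all genes. Among the genes with such an abiraterone peak, the highest abiraterone folds were found at ZBTB16, which encodes a zinc finger repressor (6.39, the best of 9 abiraterone peaks), at STK39, a stress-response kinase (6.31, of 10), at SLC45A3, which encodes the prostate protein prostein (3.78, of 5), and at STEAP2, a metalloreductase (3.73, of 3).

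Among 10 cofactors and chaperones with limits, of 11 listed, 6 held an abiraterone peak and 8 a Romidepsin peak within limits, against 47.2% and 59.1% of all genes. Start sites had one within 3 kb for 1 and 6, respectively, against 22.3% and 34.1%. At a −log10 q of at least 2 the numbers were 4 and 0, against 22.7% and 5.88%. The coactivator NCOA3 held 1 abiraterone peak, with a fold of 5.63, and the coactivator NCOA1 held 6, with a best fold of 3.78. The corepressor NCOR1 and the chaperone gene HSP90AA1 reached 3.68 and 3.58 under abiraterone.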

How the data were processed

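H2A-K130ac ChIP-seq of C4-2B under abiraterone or Romidepsin (1 library each) was analysed from peak lists. Per the labels and the paper's methods, the authors aligned 75-base paired-end reads with Bowtie 2 and called peaks with MACS2; parameters stated for the study (broad peaks, vehicle as control) do not match these lists, which are narrow peaks named as called over input. The deposited score restates −log10 p as an integer and was not used further. The deposited ratio is the fold over control, and the deposited −log10 p and −log10 q are the authors' own. No read counts are given, so the depth per peak is unknown.

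For each gene the smallest start and largest end among its transcripts in the deposited annotation of both lists served as limits. The first peak of each list, lost to the header of the annotated table, has no annotation. Distances, overlaps (any shared base pair), windows (100 kb), start-site windows (3 kb) and exact 95% binomial intervals were computed in Python 3.11.15 with numpy 2.4.6, pandas 2.3.3, scipy 1.17.1 and matplotlib 3.10.9. Promoters of 4 of the 6 genes were found in the RefSeq table and searched for the motifs. Those of KLK3 and KLK2 were aligned with Biopython 1.88 (match 2, mismatch -1, gap opening -5, extension -1). The counting was tested on simulated peaks. Peak sequences were not read, as no hg19 genome was used here. The genes and lists were chosen with earlier results of these data known. Genes named were the 6, neighbours to which their peaks were annotated, up to 4 listed genes per list with a peak of −log10 q of at least 2 ranked by fold, and for each gene the 1 most alike in 6 peak counts. A gene of the cofactor list is not reported here and was left out of its counts.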

Additional observations from a re-analysis of the deposited data

How the results depend on the processing

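Of 34 alternatives over 14 results, 16 were labelled as moving the value and 18 as leaving it the same. The label is coarse, since some values labelled the same also changed. Examples are the joined counts below and the genes with an abiraterone peak near a start site, 4 within 3 kb and 6 within 10 kb. With a −log10 q of at least 2, abiraterone peaks near the genes fell to 4, those annotated to them to 4, those within limits to 1 and the density to 0.318 per 100 kb, and each Romidepsin value to 0, fewer peaks by construction. With a q of 0.05, 93.8% and 13.8% of peaks near the genes passed. Windows of 200 kb held 61 and 70 peaks, and windows of 50 kb 17 Romidepsin peaks. An overlap of 50% of both peaks left 0 shared in either list. Within 10 kb of a start site, 1 gene had a Romidepsin peak. Joining peaks up to 400 bp apart, chosen after the narrow pairs were seen, gave 23 abiraterone peaks near the genes and 9 within limits, and changed no Romidepsin count. The conservative set is identical to the optimal one, so it could not change a value. No paired analysis was possible because a single library stands for each condition. Without values per replicate the spread of each value is unknown.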

Other observations

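Of the 30 Romidepsin peaks counted for these genes 10 were annotated to them, and of the 40 abiraterone peaks 27, while the rest went to neighbours. None of the Romidepsin peaks near KLK2, KLK3 and FKBP5 was annotated to them, so their limits come from the abiraterone list alone. Downstream of TMPRSS2, where abiraterone left no peak within 100 kb, Romidepsin had 3, at the interferon-induced genes MX1 and MX2. The peak in the last intron of MX1 (chr21:42826148-42826686) had a fold of 4.35, and the peak 751 bp from the MX2 start (chr21:42742763-42743262) one of 3.48. At HOXB13, Romidepsin peaks lay 264 and 2989 bp from start sites of 2 different transcripts of TTLL6, with folds of 3.48 and 2.61, and at FKBP5 the 5 Romidepsin peaks were annotated to TULP1 (3) and CLPSL2 (2). The abiraterone peaks near FKBP5 that were not annotated to it belonged to TEAD3 (3), MIR5690 (2) and LOC285847 (1).

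Since the labels name breast cancer, genes of the breast lineage were counted too. The estrogen receptor gene ESR1, 447.0 kb long, held 13 abiraterone and 25 Romidepsin peaks within its limits, of which 2 and 1 had a −log10 q of at least 2, and the progesterone receptor gene PGR held 3 and 1. TFF1 held 1 in each list, and SCGB2A2 and PIP held 0. A peak was thus held by 3 of 5 genes in each list, against 47.2% and 59.1% of all genes. Of 4 prostate luminal genes, all of them among the 6, 4 held an abiraterone peak and 1, TMPRSS2, a Romidepsin peak, but KLK2 and KLK3 have limits only through an abiraterone peak. These counts repeat those given above, and FOXA1, which held no peak within its limits, was not among the 4. They cannot bear on the label. Peaks of a histone mark do not measure expression.

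In the counts of peaks 100 kb upstream, within limits and 100 kb downstream in each list (6 counts), the most similar gene was ABCC5-AS1 for FOXA1, SFT2D3 for KLK2 and NMRK2 for KLK3, all with equal counts, NPVF for HOXB13 (Euclidean distance 1.0), DNAAF4-CCPG1 for FKBP5 (1.41) and PTPN21 for TMPRSS2 (1.73). With so few peaks per gene, 3 to 6 genes tied for each of these places.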
